A study of Mus musculus with 10 samples.

Results

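The mitochondrial ribosomal proteins were read from a gene count table of regulatory T cells (Treg), control or knockout for the mitochondrial transcription factor Tfam. Every gene with a symbol of Mrpl or Mrps plus a number was taken, with pseudogenes left out, which gave 78 of the 22553 genes in the table. Of these, 51 encode proteins of the large mitoribosomal subunit and 26 of the small subunit. The remaining member, Mrps36, carries the name but is known as a component of the oxoglutarate dehydrogenase complex of the citric acid cycle. Mrps30 and Mrps18a encode proteins that sit in the large subunit in spite of their names, and they are counted there.

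The control Treg were Tfamfl/+Foxp3Yfp-Cre/+ and the knockout (KO) Treg Tfamfl/flFoxp3Yfp-Cre/+, both from female C57BL/6 littermates, and no age is given in the sources used here. Cre and YFP are driven by the Foxp3 gene, so in both genotypes recombination is set by Foxp3 expression, and the control cells also carry 1 floxed Tfam allele. Foxp3 is X-linked and these females were heterozygous, so they also hold Treg without Cre, which the YFP-positive sort leaves out. Each of the 3 control and 3 KO libraries was made from poly(A) RNA of YFP-positive cells sorted from the lymph nodes and spleens of 2 to 3 pooled mice. The error behind every p-value is therefore variation from pool to pool, some of which may be technical. The libraries held between 19087757 and 27490253 gene counts.

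The mitoribosome is the ribosome of the mitochondrial matrix. It makes only the few respiratory chain and ATP synthase proteins that are encoded in mitochondrial DNA (mtDNA). Its rRNAs come from mtDNA, whereas all its proteins come from nuclear genes, are made in the cytosol and are imported, so assembly joins products of both genomes. TFAM packages mtDNA and starts its transcription, including that of the rRNAs. The comparison of KO with control therefore asks whether the nuclear transcripts for the proteins of this particle differ when the mtDNA factor is reduced.

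The members' promoter windows in RefSeq (build GRCm38.p6) run from 250 bases before to 50 bases after an annotated start, and 69 of the 78 members matched. Mrpl4, Mrpl13, Mrpl15, Mrpl19, Mrpl38, Mrpl54, Mrps28, Mrps34 and Mrps35 did not match. The stretches shown hold 100 bases before and 20 bases after the start, 5′ to 3′ on the gene's strand. They were chosen for the members with the lowest and the highest change among subunit genes (Mrpl17 and Mrps17), for a member with a role in transcription (Mrpl12) and for windows with several motifs (Mrpl53 and Mrps18a). Capitals mark matches to the motifs searched.
Mrpl17: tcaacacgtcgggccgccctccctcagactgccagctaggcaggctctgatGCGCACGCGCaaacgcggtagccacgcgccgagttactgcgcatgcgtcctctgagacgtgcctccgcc
Mrpl12: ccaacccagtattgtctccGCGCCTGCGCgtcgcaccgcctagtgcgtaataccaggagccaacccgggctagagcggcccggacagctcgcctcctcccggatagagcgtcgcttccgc
Mrpl53: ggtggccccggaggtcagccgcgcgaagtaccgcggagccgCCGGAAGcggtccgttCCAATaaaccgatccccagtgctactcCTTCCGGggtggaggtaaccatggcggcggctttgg
Mrps18a: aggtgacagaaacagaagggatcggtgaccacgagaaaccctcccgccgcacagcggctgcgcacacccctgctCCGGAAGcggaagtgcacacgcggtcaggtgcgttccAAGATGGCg
Mrps17: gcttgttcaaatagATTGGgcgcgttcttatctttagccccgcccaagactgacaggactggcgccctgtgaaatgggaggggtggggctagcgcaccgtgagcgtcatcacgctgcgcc
The Mrpl17 stretch lies at chr7:105811068-105811187 (minus strand), that of Mrpl12 at chr11:120484537-120484656, of Mrpl53 at chr6:83109008-83109127, of Mrps18a at chr17:46110904-46111023 and of Mrps17 at chr5:129715397-129715516 (plus strand for these 4). In Mrpl17 and Mrpl12 the capitals are a motif of NRF1, a factor known for driving nuclear genes of mitochondrial function. In Mrpl53 they are 2 ETS motifs and a CCAAT box, in Mrps18a an ETS and a YY1 motif, and in Mrps17 a CCAAT box.

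Motifs of 3 factor families were found in a higher share of member promoters than of promoters of all tested genes. The 69 members had 75 windows, which were compared with the 11913 windows of tested genes, and each motif was searched on both strands. The ETS motif CCGGAAG, bound by factors such as GABP, was in 34.7% of member windows and in 17.98% of windows of tested genes. The NRF1 motif was in 17.3% against 10.1%, and the YY1 motif AAGATGGC in 16.0% against 4.48%. The E-box CACGTG (9.33% against 9.84%), the CRE TGACGTCA (2.67% against 3.06%) and the CCAAT box CCAAT (40.0% against 37.9%) stood at about the same share in both. Of the 69 members, 43 had at least 1 ETS, NRF1 or YY1 motif, and no matches of different motifs overlapped in any member window. Over all 32851 windows of the table the shares were 8.86% for ETS, 4.60% for NRF1 and 2.75% for YY1. These are shares of letter matches with no test.

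Both subunits were represented in the ETS group, with 16 of 45 matched large subunit members and 10 of 23 small subunit members. NRF1 motifs were in 10 and 3 of them, and YY1 motifs in 7 and 5. Members with an ETS motif had a median log2 fold change of -0.10 and those without of -0.06. For NRF1 the medians were -0.06 with and -0.07 without, and for YY1 -0.04 and -0.07. These medians lay within 0.05 of each other for each of the 3 motifs.

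Many members have a head-to-head neighbour. With starts at most 500 bases apart on opposite strands, 24 of 69 matched members (34.8%) had such a neighbour, against 18.3% of the 9348 tested genes with a window. The neighbours included Twnk, the mtDNA helicase, beside Mrpl43, Sars2, the mitochondrial seryl-tRNA synthetase, beside Mrps12, and Ndufb5, a complex I subunit, beside Mrpl47. Mrps11 of the small and Mrpl46 of the large subunit face each other with starts 42 bases apart. Their shared stretch (chr7:78783070-78783150, plus strand, the strand of Mrps11) is shown with the bases between both starts in capitals.
Mrps11 and Mrpl46: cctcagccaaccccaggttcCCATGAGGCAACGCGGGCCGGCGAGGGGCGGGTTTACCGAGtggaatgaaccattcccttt
Of the 22 neighbours that were tested, 0 were called in KO by edgeR, against 1.39% of all tested genes called lower and 0.1% higher. In a list this short, 0 calls is near that share.

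Tfam itself (ENSMUSG00000003923) checks the labels. It stood at 25.9, 30.6 and 42.4 CPM in control replicates 1 to 3 and at 15.6, 14.4 and 16.5 CPM in KO replicates 1 to 3 (log2 fold change -1.09 ± 0.17, edgeR adjusted p = 0.020). CPM here are counts scaled to the library total, corrected by TMM factors for library composition. The groups did not overlap, so no library went against its label. Transcripts encoded in mtDNA could not be set beside the members. The 13 mtDNA protein genes are listed at 0 in all 6 libraries, and no counted gene had the symbol of an mtDNA rRNA (mt-Rnr1 or mt-Rnr2).

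No mitoribosomal gene was called changed in KO. Of the 78 members, all passed the filter on low counts, and 0 were called lower and 0 higher by edgeR's quasi-likelihood test (adjusted p between 0.282 and 1.00). Among the 11990 genes tested, 1.39% passed in the lower and 0.1% in the higher direction. At an unadjusted p under 0.05, 3 members were lower (Mrpl17, Mrpl54 and Mrpl46) and 0 higher, which is 3.85% of members against 7.22% of all genes for the lower direction and 5.4% for the higher. DESeq2 also called 0 members in either direction (1.99% of genes lower, 0.549% higher), as did DESeq2 with the replicate number as a block (2.36% and 1.1%) and limma-voom (1.13% and 0.025%). A p that misses the threshold does not show that levels were equal, and the intervals given further on bound the differences. In bulk libraries a lower level can come from fewer cells of a type or from less RNA per cell, which cannot be told apart.

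The libraries with the same number varied together, so the fit was repeated with the replicate number as a block. It again called 0 of 78 members, with a lowest adjusted p of 0.081 (Mrpl54), while 4.39% of all genes were called lower and 1.97% higher. At an unadjusted p under 0.05 the blocked fit had 7 of 78 members lower and 2 of 78 higher, against 11.9% and 10.7% of all genes. In both directions the member share was below that of all genes.

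The data bound the size of any change. The 95% interval of the log2 fold change lay within 1 of 0, a 2-fold change, for 78 of 78 members, against 86.5% of all tested genes. It lay within 0.5 of 0 for 76 of 78, the exceptions being Mrps36 (-0.65 to 0.01) and Mrps33 (-0.54 to 0.18), against 66.5% of all genes. These intervals are per gene and not adjusted for the number of genes. Member counts per library ran from 89 to 3495, and the median standard error was 0.093 on the log2 scale, against 0.105 for all tested genes. The lowest mean level was 6.18 CPM among members and 0.29 CPM among all tested genes. The shares of intervals were therefore not compared at matched levels. The median spread within a group was 6.70% of the mean in control and 6.76% in KO, and counting error alone gives a median of 3.99%.

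**Figure D1:**
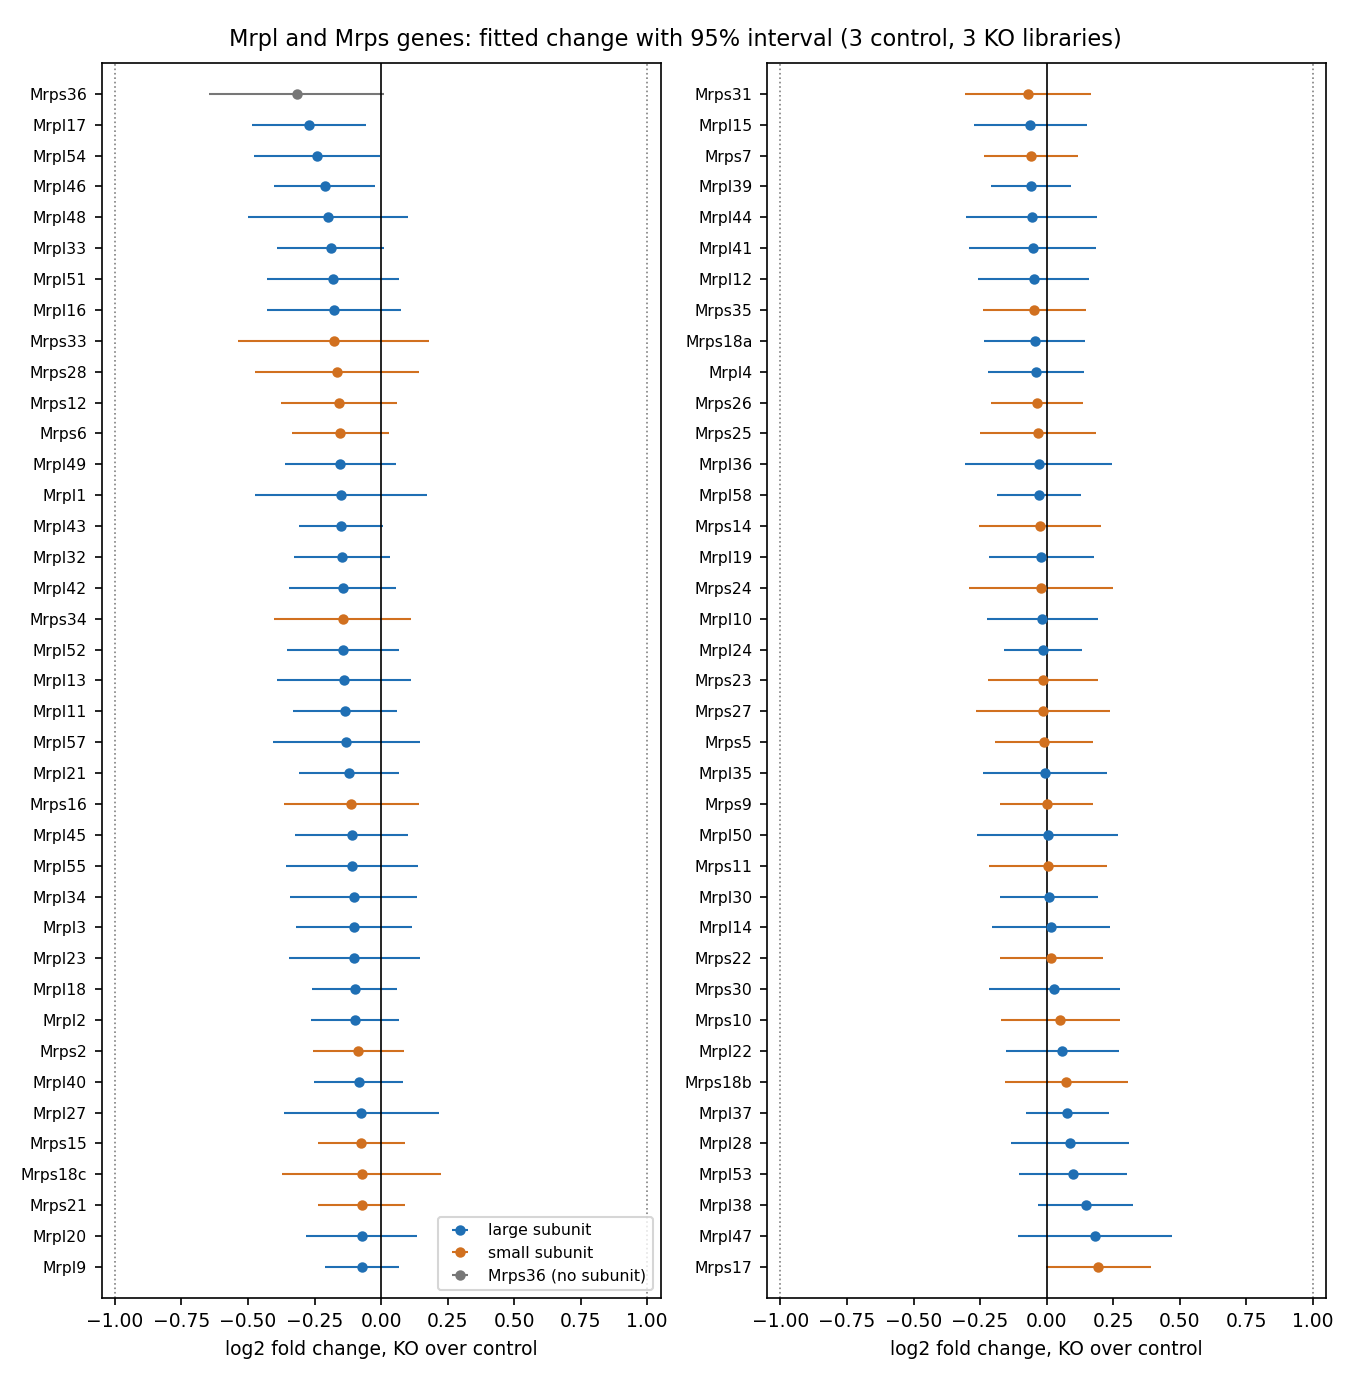
Fitted log2 fold change (x axis, KO over control) of each of the 78 members with its 95% interval, ordered from the lowest to the highest and coloured by subunit, with dotted lines at a 2-fold change. All 78 intervals lie inside the dotted lines, from Mrps36 at -0.32 to Mrps17 at 0.19.

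Fitted values leaned to the lower side by a small amount. Of the 78 members, 62 had a fitted log2 fold change below 0, or 79.5%, against 51.2% of all tested genes. The median was -0.07 over the members and -0.005 over all genes. The middle 50% of members lay between -0.14 and -0.01, a narrower range than the -0.11 to 0.11 of all genes. In 9 members all KO libraries stood below all control libraries (11.5%, against 10.4% of all genes), which is near the background. The opposite order was found in 1 member, Mrps17 (1.28%, against 8.63% of all genes).

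The large subunit had a median of -0.07 and the small subunit of -0.04, a difference of -0.03 between the medians. Of the large subunit genes 41 of 51 were fitted below 0, and of the small subunit genes 20 of 26. The changes ranged from -0.27 to 0.18 in the large and from -0.18 to 0.19 in the small subunit. The 7 lowest large subunit genes lay below the lowest small subunit gene, Mrps33, and the difference between the medians was not tested. The small subunit median moved to 0.003 without control replicate 3, with 13 of 26 members below 0, and the large subunit median to -0.05. In that fit the median over all tested genes also rose, from -0.005 to 0.009. Proteins with a bacterial counterpart had a median of -0.07 (48 genes) and those particular to mitochondria of -0.06 (29 genes). The order differed by subunit, at -0.07 (31 genes) and -0.10 (20 genes) in the large and -0.06 (17 genes) and -0.04 (9 genes) in the small. These differences were not tested.

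**Figure D2:**
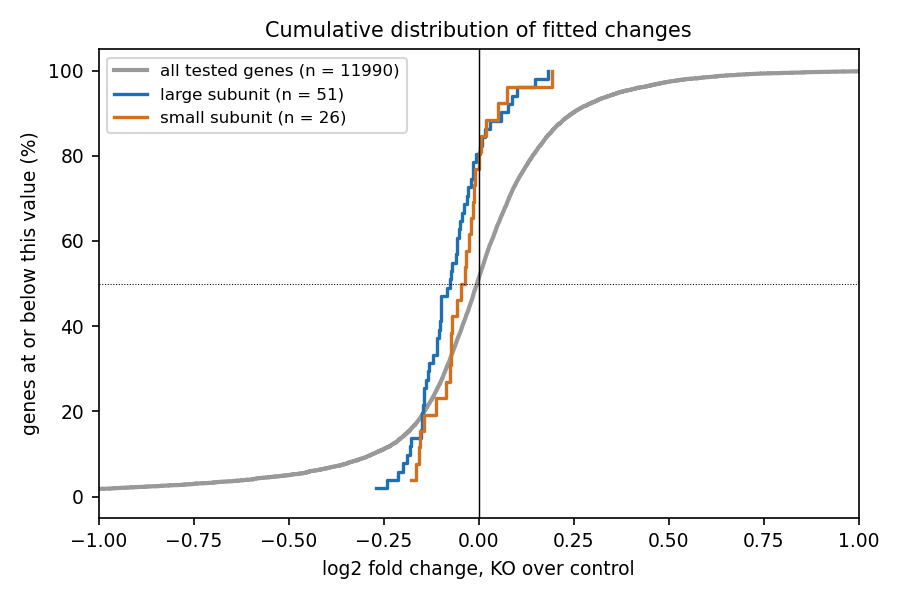
Cumulative share of genes (y axis, percent) at or below each fitted log2 fold change (x axis, KO over control) for the 51 large subunit genes, the 26 small subunit genes and the 11990 tested genes. Both subunit curves cross 50% slightly left of 0, at -0.07 and -0.04, and are steeper than the curve of all genes. The x axis ends at -1 and 1, beyond which some of the tested genes lie.

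Summed over its 51 genes, the large subunit stood at 1683, 1766 and 1834 CPM in control replicates 1 to 3 and at 1665, 1753 and 1643 CPM in KO replicates 1 to 3. KO replicates 1 and 3 lay below every control library and KO replicate 2 lay within the control range. The small subunit stood at 766, 777 and 814 CPM in control and at 737, 793 and 753 CPM in KO, again with KO replicate 2 inside the control range. The group means were 1761 ± 75.8 and 1687 ± 58.1 CPM for the large and 786 ± 24.8 and 761 ± 28.6 CPM for the small subunit (SD, n = 3 each).

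The ratio between the subunits overlapped between genotypes. The ratio of large to small subunit CPM was 2.20, 2.27 and 2.25 in control and 2.26, 2.21 and 2.18 in KO replicates 1 to 3, a mean of 2.24 ± 0.041 against 2.22 ± 0.039. The value of the ratio itself depends on gene number and transcript length and is no measure of stoichiometry.

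**Figure D3:**
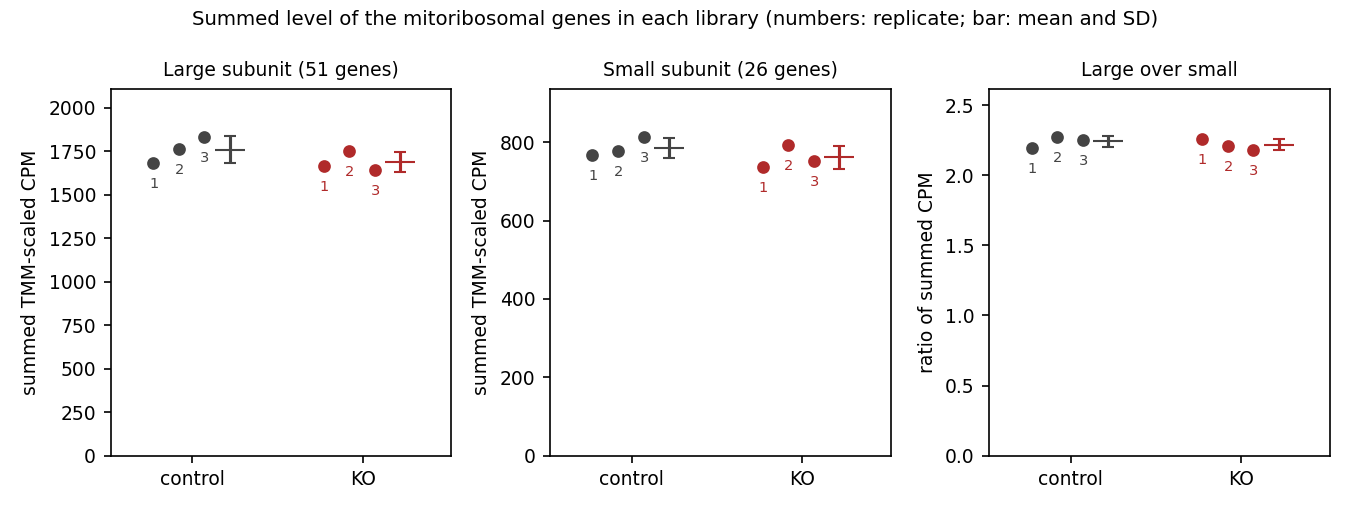
Summed TMM-scaled CPM of the large and the small subunit genes, and their ratio (y axes, from 0), in each control and KO library, with numbers for the replicate and bars for the mean and SD. KO replicates 1 and 3 lie below all controls in both sums, KO replicate 2 does not, and the ratio stays between 2.18 and 2.27.

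The lean was largest between the libraries numbered 3. Within same-numbered libraries the median log2 ratio of KO to control over all members was -0.04 for number 1, -0.003 for number 2 and -0.16 for number 3. Over all tested genes these medians were -0.0008, 0.014 and -0.033, so number 3 was also the lowest there. Below 0 were 49, 40 and 68 of the 78 members. Control replicate 3 was the highest control library for 46 members, and KO replicate 3 the lowest KO library for 36. KO replicate 1 was the lowest KO library for nearly as many, 33 members, and control replicate 1 the lowest control library for 48. Of the members, 29 were lower in KO in all 3 same-numbered comparisons and 7 in none. These counts were not made for all tested genes. Without control replicate 3, 47 of 78 members were fitted below 0 (median -0.04), beside 47.3% of all tested genes (median 0.009). The count was 54 (median -0.05) without KO replicate 1, beside 47.8% of all genes (median 0.009). It was 60 (median -0.06) without KO replicate 3, beside 51.4% (median -0.006). The libraries numbered 3 were thus not alone in moving the count. With all libraries the all-gene share was 51.2%, so it also fell in the first 2 of these fits. The member median minus the all-gene median was -0.066 with all libraries and -0.052, -0.055 and -0.051 in these 3 fits.

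**Figure D4:**
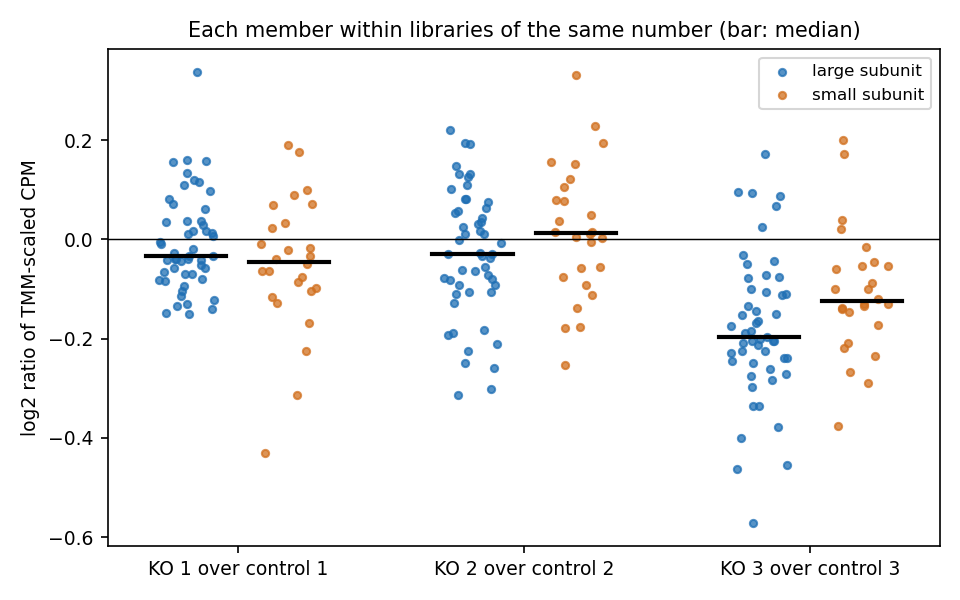
Log2 ratio of TMM-scaled CPM (y axis) of each subunit gene in KO over control libraries of the same number (x axis), with the large and small subunits apart and bars at the medians. The points of numbers 1 and 2 centre near 0, and those of number 3 centre at -0.20 for the large and -0.12 for the small subunit.

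The members' deviations within a genotype partly followed the library number. Across the 78 members, the deviations from the group mean correlated between same-numbered control and KO libraries at r = 0.41, 0.16 and 0.59 for numbers 1 to 3. Between libraries of unlike number the 6 values ran from -0.54 to 0.14. A member's deviations sum to 0 within a group, so a high same-numbered value lowers the values of unlike number. The 2 sets are therefore not independent. The highest of these, control replicate 2 with KO replicate 1, was about as high as the same-numbered value for number 2. Members share libraries, depth and processing, so these values are descriptions with no test.

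Among large subunit genes, Mrpl17 (ENSMUSG00000030879), a counterpart of bacterial L17, had the lowest fitted value. It stood at 23.7, 26.8 and 28.4 CPM in control and at 21.7, 23.1 and 20.6 CPM in KO replicates 1 to 3. All KO libraries lay below all controls, by a small margin. Its log2 fold change was -0.27 ± 0.09 (95% interval -0.48 to -0.06, edgeR adjusted p = 0.282, or adjusted p = 0.085 with the replicate block).

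Mrpl54 (ENSMUSG00000034932), a protein with no bacterial counterpart, stood at 27.1, 31.3 and 25.9 CPM in control and at 24.6, 25.4 and 21.3 CPM in KO. The groups did not overlap, at -0.24 ± 0.10 (edgeR adjusted p = 0.384). Mrpl48 (ENSMUSG00000030706), also without a bacterial counterpart, stood at 15.6, 18.1 and 20.7 CPM in control and at 15.8, 17.7 and 13.96 CPM in KO. Its groups overlapped, at -0.20 ± 0.13. The log2 ratio was -0.57 between the libraries numbered 3 and 0.01 and -0.03 for numbers 1 and 2.

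Mrpl46 and Mrps11 share the stretch shown. Mrpl46 (ENSMUSG00000030612) stood at 27.9, 28.0 and 30.5 CPM in control and at 25.2, 26.3 and 23.1 CPM in KO (-0.21 ± 0.08, edgeR adjusted p = 0.337). Mrps11 (ENSMUSG00000030611) stood at 19.6, 17.5 and 18.99 CPM in control and at 20.6, 18.6 and 17.2 CPM in KO (0.01 ± 0.10, edgeR adjusted p = 0.991). Mrpl46 did not overlap between groups and Mrps11 did. The ratio of Mrpl46 to Mrps11 was 1.54 ± 0.10 in control and 1.33 ± 0.10 in KO (SD, n = 3 each), with 1.424, 1.596 and 1.604 in control and 1.221, 1.417 and 1.346 in KO. This pair was chosen after its values were seen, so the ratio is a description, and the difference between the genes was not tested.

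The large subunit genes with the highest values were Mrpl47, Mrpl38, Mrpl53 and Mrpl28. Mrpl47 (ENSMUSG00000037531), a counterpart of bacterial L29 near the peptide exit tunnel, stood at 8.95, 10.7 and 11.8 CPM in control and at 11.3, 11.8 and 12.5 CPM in KO (0.18 ± 0.13, edgeR adjusted p = 0.598). Mrpl38 (ENSMUSG00000020775) stood at 47.5, 40.2 and 43.3 CPM in control and at 49.5, 46.9 and 48.7 CPM in KO (0.15 ± 0.08, adjusted p = 0.482). Both overlapped between groups by 1 or more libraries, although each was higher in KO in all 3 same-numbered comparisons. Mrpl53 and Mrpl28 had values of 0.10 ± 0.09 and 0.09 ± 0.10.

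Several large subunit members have a known role beyond the particle's frame. Mrpl12 (ENSMUSG00000039640), the stalk protein that recruits translation factors and also binds the mitochondrial RNA polymerase, stood at 46.0, 49.6 and 48.5 CPM in control and at 46.5, 51.6 and 41.1 CPM in KO. KO spanned the whole control range, at -0.05 ± 0.09 (edgeR adjusted p = 0.865). Mrpl58 (ENSMUSG00000018858), a peptidyl-tRNA hydrolase that rescues stalled mitoribosomes, stood at 53.5, 53.1 and 58.7 CPM in control and at 53.4, 56.0 and 52.8 CPM in KO (-0.03 ± 0.07, adjusted p = 0.907).

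Mrpl45 (ENSMUSG00000018882), which anchors the exit tunnel to the inner membrane, had a log2 fold change of -0.11 ± 0.09. Mrpl32 (ENSMUSG00000015672), which the m-AAA protease matures before it is assembled, had -0.15 ± 0.08, from 30.3 ± 2.13 to 27.4 ± 0.57 CPM (SD, n = 3 each). Mrpl32 nearly separated the groups, with its highest KO library at 28.02 and its lowest control at 28.01 CPM. Both had edgeR adjusted p-values of at least 0.491.

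In the small subunit the lowest fitted genes were Mrps33, Mrps28, Mrps12 and Mrps6, between -0.18 and -0.15. Mrps12 (ENSMUSG00000045948), the counterpart of bacterial S12 in the decoding centre, stood at 30.7, 30.2 and 28.4 CPM in control and at 29.7, 26.7 and 23.6 CPM in KO (-0.16 ± 0.10, edgeR adjusted p = 0.538). KO replicate 1 lay inside the control range. Mrps6 (ENSMUSG00000039680) stood at 25.8, 24.1 and 24.95 CPM in control and at 23.8, 21.3 and 22.1 CPM in KO (-0.15 ± 0.08, adjusted p = 0.471), with no overlap. Mrps33 and Mrps28 overlapped between groups, at -0.18 ± 0.16 and -0.17 ± 0.13. The value of Mrps33 was -0.059 without KO replicate 1, and that of Mrps28 -0.054 without KO replicate 3.

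At the other end, Mrps17 (ENSMUSG00000034211), the counterpart of bacterial S17, was the 1 member with all KO libraries above all controls. It stood at 21.9, 21.9 and 19.9 CPM in control and at 24.8, 25.6 and 22.5 CPM in KO (0.19 ± 0.09, edgeR adjusted p = 0.405, or adjusted p = 0.160 with the replicate block). Mrps18b, Mrps10 and Mrps22 followed, with values of 0.07 ± 0.10, 0.05 ± 0.10 and 0.02 ± 0.08, and their groups overlapped.

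The 3 Mrps18 paralogues, all related to bacterial S18, occupy different places: Mrps18a in the large subunit, Mrps18b and Mrps18c in the small. Mrps18a (ENSMUSG00000023967) stood at 30.8, 30.3 and 32.7 CPM in control and at 29.2, 33.2 and 28.7 CPM in KO (-0.04 ± 0.08). Mrps18b (ENSMUSG00000024436) stood at 17.2, 18.7 and 16.4 CPM in control and at 16.4, 19.7 and 18.9 CPM in KO. Mrps18c (ENSMUSG00000016833) stood at 22.9, 25.8 and 31.1 CPM in control and at 22.6, 24.8 and 28.6 CPM in KO (-0.07 ± 0.13). All 3 overlapped between groups, and for Mrps18c the libraries numbered 3 were the highest in both genotypes. Mrps30 (ENSMUSG00000021731), the other large subunit protein with a small subunit name, had 31.0 ± 2.73 CPM in control and 31.7 ± 4.001 CPM in KO (SD, n = 3 each; 0.03 ± 0.11).

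Mrps36 (ENSMUSG00000061474), the member outside the mitoribosome, had the lowest fitted value of all 78. It stood at 6.80, 6.86 and 6.90 CPM in control and at 6.16, 5.65 and 4.67 CPM in KO (-0.32 ± 0.14, edgeR adjusted p = 0.413, or adjusted p = 0.191 with the replicate block). The groups did not overlap, and the KO libraries spread more widely than the controls. The gene name table lists 3 pseudogenes of it (Mrps36-ps1, Mrps36-ps2 and Mrps36-ps3), with which reads could be shared, so its value is uncertain.

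Other genes of the pathway showed 0 calls as well. Over all tested genes edgeR called 1.39% lower and 0.1% higher, so 0 calls in lists this short is near that share. The 5 mitoribosomal proteins with other names had a median log2 fold change of -0.06, from Gadd45gip1 at -0.11 ± 0.10 to Ptcd3 at 0.13 ± 0.09. Dap3, the GTP-binding protein of the small subunit head, had 0.04 ± 0.07. Of 28 genes listed for mitoribosome assembly, 0 were called, and their median was 0.06. Most encode factors that modify the mitoribosomal rRNA or help the subunits mature. The list also includes Lars2, a mitochondrial tRNA synthetase, at 0.04 ± 0.11. Only 10 of the 28 were fitted below 0. Mettl17, an assembly factor of the small subunit, stood at 77.8, 72.6 and 76.3 CPM in control and at 85.2, 85.0 and 89.9 CPM in KO (0.20 ± 0.06, edgeR adjusted p = 0.225, or adjusted p = 0.058 with the replicate block). Its groups did not overlap. Gtpbp10, a GTPase of large subunit assembly, had the lowest value of the list. It stood at 2.00, 2.05 and 2.08 CPM in control and at 1.35, 1.27 and 1.57 CPM in KO, with no overlap (-0.55 ± 0.21, edgeR adjusted p = 0.336). The RNA helicase Ddx28 had -0.29 ± 0.11 (edgeR adjusted p = 0.314).

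Of 17 tested mitochondrial translation factors 0 were called, again near the share over all genes, with a median of -0.07 and 12 below 0. The elongation factor Tufm had -0.08 ± 0.07 and the insertase Oxa1l, which receives nascent chains from the exit tunnel, -0.08 ± 0.06. Ribosomal proteins of the cytosol had a median of -0.02 over 78 tested genes, with 0 called and 52 below 0 (66.7%).

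Markers of other cells differed between libraries. The 12 macrophage markers summed to 449 to 971 CPM in control and 515 to 1398 CPM in KO, highest in the libraries numbered 2 of each genotype. All 12 were fitted above 0, with 0 called by edgeR without the block and 4 called higher with the replicate block (Adgre1, Cd68, Slc40a1 and Vcam1, lowest adjusted p = 0.0233). The 6 B cell markers summed to 549 to 577 and 398 to 432 CPM. Of the 5 tested, Ighm was called lower (-0.47 ± 0.07, edgeR adjusted p = 0.0134) and 2 in all were fitted below 0. Cycling markers (Mki67 and Top2a) summed to 144, 233 and 70.8 CPM in control replicates 1 to 3 and to 98.6, 102 and 45.7 CPM in KO replicates 1 to 3. The sum was lower in KO in all 3 same-numbered comparisons. Neither gene was called without the block, and both were called lower with the replicate block (Mki67 at -0.88, edgeR adjusted p = 0.000919, and Top2a at -0.69, adjusted p = 0.000467). Without both libraries numbered 2 the member median was -0.09, beside -0.02 over all tested genes, with 0 members called. The part of the macrophage, B cell and cycling markers in the members' values was not tested. The Treg markers Foxp3, Il2ra, Ctla4, Ikzf2, Cd4 and Cd3e summed to 2264 to 2555 CPM in control and 2292 to 2491 CPM in KO. Of these 6, 0 were called without the block, and Ctla4 was called lower with the replicate block (-0.22, edgeR adjusted p = 0.043).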

How the data were processed

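RNA of 6 Treg libraries (3 control, 3 KO) was analysed, and the ATAC-seq libraries were not analysed here. The authors deposited raw read counts per Ensembl gene, described as HTSeq counts per the labels. Per the submitters' processing notes, the tools included bedtools, SAMtools, Bowtie2, HISAT2, Cufflinks and DESeq2, and both mm9 and mm10 are listed as builds. The roles of these, tool versions, gene annotation and strandedness are not stated in those notes. Reads of genes with overlapping or opposite-strand neighbours may therefore be mixed. A gene name table gave symbols for 22522 of 22553 IDs.

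Counts were tested with edgeR 4.0.16 (R 4.3.3): filterByExpr (minimum count 10, minimum total 15), TMM factors between 0.990 and 1.03, quasi-likelihood F test, Benjamini-Hochberg adjustment over all 11990 tested genes, calls at an adjusted p under 0.05. Errors after ± on log2 fold changes are standard errors, derived from the F statistic. Within a group, no pair of libraries was a duplicate (chi-square per degree of freedom 8.75 to 27.4), and the fit was tested on simulated data. The fitted model was repeated with DESeq2 1.42.0, limma-voom (limma 3.58.1), other scalings, no filter, a replicate block and libraries left out.

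Replicate numbers come from the sample titles, and the labels do not say what the numbers mark. Over all tested genes, deviations from the group mean correlated between same-numbered control and KO libraries at 0.300, 0.584 and 0.537, so the numbers were taken to pair the libraries. This pairing was inferred from the same expression values that the blocked fits test, so calls made only with the block rest on it.

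The members and lists were chosen with earlier results of these data known. Members named were the 4 lowest and the 4 highest fitted in each subunit, any called, and those with a particular known role; Mrps11, Mrps36's copies and genes outside the members were named besides. A planned choice by level per coding length and planned protein features were not made, because no lengths or protein sequences were used here.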

Additional observations from a re-analysis of the deposited data

How the results depend on the processing

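Under 14 alternatives (RLE factors, library totals only, no filter, DESeq2, limma-voom, the replicate block, each library left out, both libraries numbered 2 left out, and DESeq2 with the block, the last added after seeing the data) the number of members called stayed at 0 lower and 0 higher. The replicate block changed no call among the members, with medians of -0.07 for the large and -0.04 for the small subunit. With 1 library left out the large subunit median lay between -0.11 and -0.05, the small subunit median between -0.06 and 0.003, and the difference between -0.05 and -0.02. By symbol prefix alone the medians were -0.08 and -0.04.

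Of the 24 members named by rule, 19 kept their sign under all 14 alternatives, but 18 moved by over 1.5 times under at least 1 of them. The other 6 were Mrps36, Mrpl17, Mrpl46, Mrps6, Mrpl32 and Mrps17. Nearest to 0 with 1 library left out, Mrpl54 was -0.16 (control replicate 2), Mrpl48 -0.091 (control replicate 3), Mrps12 -0.079 (KO replicate 3), Mrpl45 -0.047 (control replicate 3), Mrps18a -0.0063 (KO replicate 3), Mrps10 0.027 (KO replicate 2), Mrps18b 0.027 (KO replicate 2), Mrpl28 0.016 (control replicate 3), Mrpl53 0.062 (control replicate 3), Mrpl38 0.092 (control replicate 2) and Mrpl47 0.094 (control replicate 1). With 1 library left out, Mrps18c lay between -0.169 and 0.055 (above 0 without control replicate 3 or KO replicate 1), Mrpl12 between -0.122 and 0.030 (above 0 without KO replicate 3), Mrpl58 between -0.054 and 0.020 (above 0 without control replicate 3), Mrps22 between -0.0087 and 0.053 (below 0 without KO replicate 3) and Mrps30 between -0.078 and 0.101 (below 0 without control replicate 1 or KO replicate 3). The cause was not tested.

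Over all genes edgeR called 167 lower and 12 higher, against 526 and 236 with the replicate block. The counts were 261 and 72 with DESeq2, 294 and 137 with DESeq2 and the block, and 136 and 3 with limma-voom. For edgeR they were 160 and 7 with library totals only and 54 and 0 without both libraries numbered 2. With 1 library left out edgeR called 26 to 166 lower and 0 to 10 higher. Precision is limited to the intervals given, with counts of 89 to 3495 per member and 3 libraries per group. The median spread within a group (6.70% in control, 6.76% in KO) was above the 3.99% from counting error alone.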
